A study of Mus musculus with 15 samples.

Results

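The genes described here are 9 members of the mitochondrial pathway of apoptosis: the pro-survival genes *Bcl2*, *Bcl2l1* and *Mcl1*, the effectors *Bax* and *Bak1*, the BH3-only genes *Bcl2l11* and *Bbc3*, and *Apaf1* and *Casp9*, which act once mitochondria have been opened. They were listed by name as genes of the pathway, with earlier results of these data known, and found in the table of normalized read counts through their Ensembl identifiers. The table holds 19475 genes, and all 9 were among the 16507 genes whose mean over the embryos was at least 5, so that no member was lost to the filter on low values.

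Apoptosis through mitochondria is set by the balance within the Bcl2 protein family. Pro-survival members hold the effectors Bax and Bak in check at the outer mitochondrial membrane, and BH3-only members, which are made or activated under stress, relieve this restraint. Open mitochondria release cytochrome c, which binds Apaf1 to form the apoptosome and activates caspase-9, and developing neurons that lack trophic support are known to die by this route.

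RNA-Seq was carried out on brains of 15 C57BL/6J mice collected as embryos (E16.5): 5 were WT, 5 carried the mutation on one allele (*Tbr1*+/K228E, labelled hetero) and 5 on both (*Tbr1*K228E/K228E, labelled homo), and each genotype had 3 females and 2 males. *Tbr1* encodes a T-box transcription factor of cortical projection neurons, and the K228E knock-in replaces a lysine of its T-box domain by glutamate in every cell from the zygote onward. A selection cassette was removed in the germ line with protamine-Cre, and the study describes the tissue as forebrain whereas the labels give brain and whole brain. The question was how gene expression differs between the 3 genotypes, and here it is asked of the apoptosis genes.

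The deposited values summed to between 30.5 and 31.8 M per embryo (M for megareads), from an estimated 26.2 to 37.9 M reads, and pairs of embryos within a genotype had correlations of 0.971 to 0.988 on the log2 scale. *Tbr1* itself had normalized read counts from 2097 to 4871 in WT, from 4738 to 8543 in *Tbr1*+/K228E and from 7148 to 16020 in *Tbr1*K228E/K228E embryos. All 10 listed forebrain and cortical neuron genes were detected in each genotype, with summed counts from 192000 to 237000 over all embryos. The sum of 17 detected Hox genes, which mark hindbrain and spinal cord, ranged from 3.66 to 3963 between embryos, with a median of 392 in WT, 6.65 in *Tbr1*+/K228E and 53.7 in *Tbr1*K228E/K228E embryos. Meningeal, cell cycle, microglial, blood and endothelial marker sums overlapped between the genotypes too (two-sided exact permutation tests of each of the 7 sums against WT, p from 0.302 to 0.825). In RNA from whole tissue, fewer cells of a type and less RNA per cell cannot be told apart. The labels do not say whether embryos of a genotype came from separate litters.

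Per kilobase of annotated exon, the 9 genes covered a wide range of levels in WT embryos. *Mcl1* was highest, with 1190 ± 41.1 normalized read counts per kilobase (SD, n = 5), followed by *Bax* with 976 ± 42.4 and *Bcl2l1* with 605 ± 29.1 (SD, n = 5). *Bcl2* reached 135 ± 5.88 and *Bcl2l11* 64.3 ± 6.39 (SD, n = 5), the lowest levels of the 9. Between them, *Bak1* (256), *Casp9* (238), *Apaf1* (232) and *Bbc3* (212 per kilobase) formed a run in which each gene overlapped with the next across WT embryos, so that their order is not larger than their spread. The levels of the other neighbors in this order did not overlap. Among the pro-survival genes of these brains, *Mcl1* and *Bcl2l1* transcripts were thus more abundant per length than those of *Bcl2*.

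None of the 9 genes passed the adjusted threshold of 0.05 in any comparison of genotypes (limma on log2 of the normalized read count + 1, with Benjamini–Hochberg correction over 16507 genes). Over all tested genes, 0% passed between *Tbr1*+/K228E and WT, 0.127% between *Tbr1*K228E/K228E and WT, and 0.0788% between the mutant genotypes. At an unadjusted p under 0.05, limma gave 1 of 9 members in each comparison, against 1.79%, 3.23% and 3.3% of all tested genes. These were *Bak1* between *Tbr1*+/K228E and WT and *Bcl2* in both comparisons of *Tbr1*K228E/K228E embryos. The median log2 fold change of the 9 members was 0.04, -0.01 and 0.003 in the same order, beside -0.002 in both comparisons with WT and 0.0004 between the mutant genotypes over all tested genes. Both comparisons with WT use the same WT embryos and are therefore not independent.

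**Figure D1:**
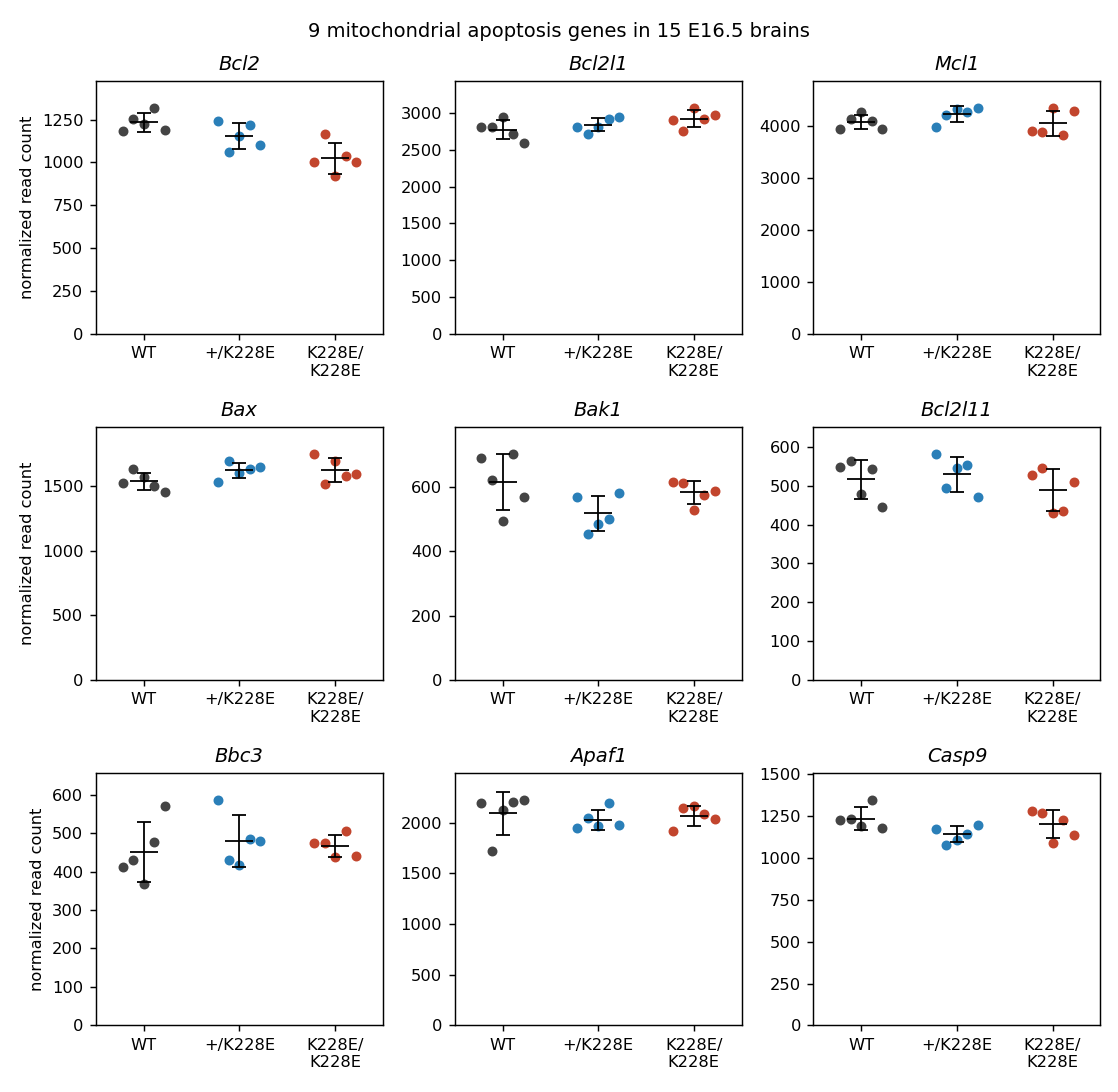
Normalized read counts of the 9 genes (y axes, each from 0) in each of 15 embryos by genotype (x axes). Points are embryos, horizontal bars means and error bars SD (n = 5), and of the 9 genes *Bcl2* is the one in which every *Tbr1*K228E/K228E embryo (919 to 1165) lies below every WT embryo (1185 to 1317).

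Among the pro-survival genes, *Bcl2* showed the largest difference of the 9 members between *Tbr1*K228E/K228E and WT embryos. *Bcl2* (ENSMUSG00000057329, minus strand, chr1:106538178-106714274 in GRCm38), which encodes the founding member of the family, had normalized read counts of 1185, 1253, 1224, 1317 and 1191 in WT embryos. The counts were 1239, 1061, 1154, 1220 and 1102 in *Tbr1*+/K228E and 1000, 1165, 919, 1037 and 1003 in *Tbr1*K228E/K228E embryos. All *Tbr1*K228E/K228E embryos were lower than all WT embryos, whereas *Tbr1*+/K228E embryos overlapped with both. The means were 1234 ± 53.9, 1155 ± 75.5 and 1025 ± 89.5 (SD, n = 5 each) from WT to *Tbr1*K228E/K228E. Exons of *Bcl2* share 558 bases with *D630008O14Rik* on the other strand, a gene without values here. The library kit does not keep strand, so reads of these bases cannot be assigned by strand.

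The log2 fold change of *Bcl2* between *Tbr1*K228E/K228E and WT embryos was -0.27 (95% interval -0.40 to -0.14), a change of -24.3% to -9.23%. Its unadjusted limma p of 0.000505 ranked 35 among all tested genes, and the adjusted p of 0.238 did not pass the threshold. The two-sided exact permutation test of *Bcl2* alone gave p = 0.00794, the smallest that 5 against 5 embryos allow. This p follows from groups that do not overlap and is not corrected for the choice of *Bcl2* among the 9 members. Groups did not overlap for 1 of 9 members and for 0.594% of all tested genes in this comparison, or 0.273% in the lower direction alone. The corresponding count was 0 of 9 members between *Tbr1*+/K228E and WT (0.26% of all tested genes, 0.158% lower and 0.103% higher) and 0 of 9 between the mutant genotypes (0.878%, 0.388% lower and 0.491% higher). Between *Tbr1*+/K228E and WT embryos the log2 fold change of *Bcl2* was -0.10 (95% interval -0.23 to 0.03; limma adjusted p = 0.999), and -0.04 with the Hox, meningeal and cell cycle sums as covariates. Between the mutant genotypes it was -0.17 (95% interval -0.31 to -0.04), with a limma adjusted p of 0.996 and an exact permutation p of 0.0556. Between *Tbr1*K228E/K228E and WT embryos, the limma adjusted p of *Bcl2* was 0.0336 with the Hox, meningeal and cell cycle sums as covariates, where the log2 fold change was again -0.27, and 0.0263 with an empirical null. Without each embryo in turn the adjusted p was 0.0502 to 0.632, and *Bcl2* passed in none of these 10 fits. Its log2 fold change was -0.29 (adjusted p = 0.374) without the embryos with the highest Hox and the highest meningeal sums.

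The 250 bases before the start of *Bcl2* in RefSeq are shown because *Bcl2* is the member that differed most, beside the same window of *Hrk*, a BH3-only gene outside the 9 whose values follow. Both are RefSeq sequences of GRCm38.p6, printed 5′ to 3′ on the strand of the gene, for *Bcl2* chr1:106714291-106714540 on the minus strand and for *Hrk* chr5:118169514-118169763 on the plus strand. The RefSeq starts are not those of the GENCODE gene spans given here, and the *Hrk* window lies inside the *Hrk* span, downstream of its GENCODE start. Capitals mark GC boxes (GGGCGG on either strand).
Bcl2: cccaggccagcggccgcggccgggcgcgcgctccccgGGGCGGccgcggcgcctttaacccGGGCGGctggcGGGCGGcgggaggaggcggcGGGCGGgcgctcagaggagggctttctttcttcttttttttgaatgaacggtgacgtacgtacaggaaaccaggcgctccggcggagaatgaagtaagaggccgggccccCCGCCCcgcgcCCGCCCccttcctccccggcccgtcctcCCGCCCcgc
Hrk: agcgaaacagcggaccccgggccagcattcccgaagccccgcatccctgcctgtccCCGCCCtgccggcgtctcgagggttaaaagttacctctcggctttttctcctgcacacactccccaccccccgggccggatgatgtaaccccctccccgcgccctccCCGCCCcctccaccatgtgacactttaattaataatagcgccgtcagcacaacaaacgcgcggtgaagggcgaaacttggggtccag
The *Bcl2* window had a GC content of 74.8% and 7 GC boxes, and that of *Hrk* 63.2% and 2 GC boxes, where the median GC content of 32851 windows of the same length was 52.4% and 32.7% of them held a GC box. Neither window held the letters GGTGTGA, the core of the sequence that T-box factors recognize, which 3.33% of all windows contained, nor CCAAT, which 33.8% contained. Of the members' windows, 1 of *Bcl2l1* held the T-box core. These windows and motifs were chosen after the values had been seen, a match of letters is a description and not a binding site, and no binding of Tbr1 was measured in these samples.

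*Bcl2l1* (ENSMUSG00000007659, minus strand, chr2:152780668-152831728), whose long product Bcl-xL protects differentiating neurons, had counts of 2805, 2814, 2948, 2707 and 2590 in WT embryos. They were 2815, 2713, 2811, 2917 and 2942 in *Tbr1*+/K228E and 2901, 2753, 3065, 2919 and 2965 in *Tbr1*K228E/K228E embryos. The 3 genotypes overlapped, and the log2 fold change relative to WT was 0.03 (95% interval -0.05 to 0.12) in *Tbr1*+/K228E and 0.08 (95% interval -0.01 to 0.16) in *Tbr1*K228E/K228E embryos. Values per gene do not separate the long from the short *Bcl2l1* transcript, which encodes a pro-apoptotic protein. *Mcl1* (ENSMUSG00000038612, plus strand, chr3:95658788-95663176), a short-lived pro-survival protein needed by neural progenitors, had counts of 3938 to 4279 (median 4100) in WT, 3981 to 4350 (median 4274) in *Tbr1*+/K228E and 3831 to 4349 (median 3910) in *Tbr1*K228E/K228E embryos. Its log2 fold change was 0.05 (95% interval -0.04 to 0.14) and -0.01 (95% interval -0.10 to 0.08) relative to WT, and the intervals leave room for changes of -6.82% to 5.68% in *Tbr1*K228E/K228E embryos. The ratio of *Bcl2* to *Bcl2l1* counts had a median of 0.445 in WT, 0.411 in *Tbr1*+/K228E and 0.345 in *Tbr1*K228E/K228E embryos, and the ranges of WT (0.415 to 0.487) and *Tbr1*K228E/K228E embryos (0.30 to 0.42) overlapped.

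The effectors form the pore in the outer mitochondrial membrane. *Bax* (ENSMUSG00000003873, minus strand, chr7:45461697-45466898), the effector on which most developmental death of neurons depends, had counts of 1524, 1630, 1574, 1504 and 1455 in WT embryos. They were 1535, 1692, 1603, 1633 and 1645 in *Tbr1*+/K228E and 1750, 1516, 1696, 1579 and 1592 in *Tbr1*K228E/K228E embryos. Groups overlapped, with a log2 fold change relative to WT of 0.08 in both mutant genotypes (95% intervals -0.02 to 0.18 in each) and of 0.00 between them. Of the 1.58 kilobases of *Bax* exons, 192 bases are shared with *Gm45808* on the same strand, a gene without values here. The ratio of *Bax* to *Bcl2* counts, a common summary of the balance, had a median of 1.29 in WT (1.14 to 1.30), 1.39 in *Tbr1*+/K228E (1.24 to 1.59) and 1.59 in *Tbr1*K228E/K228E embryos (1.30 to 1.84). This ratio of read counts is not a ratio of molecules or proteins, and it was chosen after the values had been seen and is given without a test.

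*Bak1* (ENSMUSG00000057789, minus strand, chr17:27019810-27029009), the partner effector, had counts of 690.5, 623, 496, 704 and 570.3 in WT embryos. They were 569, 454.5, 487, 501.5 and 581 in *Tbr1*+/K228E and 617, 614, 528, 576 and 588 in *Tbr1*K228E/K228E embryos. *Tbr1*+/K228E embryos were on the low side of the WT range, with overlap, and *Tbr1*K228E/K228E embryos lay within it. The log2 fold change between *Tbr1*+/K228E and WT embryos was -0.24 (95% interval -0.45 to -0.04; limma unadjusted p = 0.0222, adjusted p = 0.999), with an exact permutation p of 0.0794. It was -0.07 (95% interval -0.27 to 0.14) between *Tbr1*K228E/K228E and WT and 0.18 (95% interval -0.03 to 0.38) between the mutant genotypes. The Hox sum moved with *Bak1*: 4 of 5 *Tbr1*+/K228E embryos, 2 of 5 WT and 3 of 5 *Tbr1*K228E/K228E embryos were among the 9 with the lowest Hox sums, and with the 3 marker sums as covariates the log2 fold change between *Tbr1*+/K228E and WT was -0.17. Its part in the difference was not tested. Exons of *Bak1* share 437 bases with *Ggnbp1* on the other strand, a gene with a mean count of 429.7, and the library kit does not keep strand, so reads of the shared bases cannot be assigned by strand.

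Neither BH3-only member passed the threshold in a comparison of genotypes. *Bcl2l11* (ENSMUSG00000027381, plus strand, chr2:128126038-128162547) encodes Bim, which neurons make after loss of trophic support, and its counts were 549, 565, 479.5, 544 and 445 in WT embryos. They were 582, 495, 546, 553 and 471 in *Tbr1*+/K228E and 528, 545, 429, 434 and 511 in *Tbr1*K228E/K228E embryos. The groups overlapped, and the log2 fold change was 0.04 (95% interval -0.16 to 0.23) in *Tbr1*+/K228E and -0.08 (95% interval -0.27 to 0.11) in *Tbr1*K228E/K228E embryos relative to WT. *Bbc3* (ENSMUSG00000002083, plus strand, chr7:16308393-16318205) encodes Puma, a target of p53, and had counts of 367 to 571 (median 429) in WT, 416 to 587 (median 480.2) in *Tbr1*+/K228E and 438 to 504 (median 474) in *Tbr1*K228E/K228E embryos. Its log2 fold change was 0.09 (95% interval -0.14 to 0.33) and 0.06 (95% interval -0.18 to 0.30) relative to WT, and the SD of its log2 values within genotypes, 0.185, was the largest of the 9 members. That of *Bcl2l1*, 0.0584, was the smallest. Among tested genes of similar mean level, these SDs lay at the 69.7th percentile for *Bbc3*, the 65.7th for *Apaf1*, the 52.7th for *Bcl2l11* and the 15.4th for *Bcl2l1*.

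Neither apoptosome gene passed the threshold in a comparison of genotypes. *Apaf1* (ENSMUSG00000019979, minus strand, chr10:90989311-91082770), the scaffold of the apoptosome, had counts of 2190, 1725, 2121, 2201 and 2227 in WT embryos, of which the second stood apart. The range was 1950 to 2193 (median 1978) in *Tbr1*+/K228E and 1918 to 2163 (median 2088) in *Tbr1*K228E/K228E embryos, and the log2 fold change relative to WT was -0.04 (95% interval -0.18 to 0.10) and -0.01 (95% interval -0.15 to 0.13). Without the second WT embryo these values were -0.11 and -0.08. *Casp9* (ENSMUSG00000028914, plus strand, chr4:141793612-141815976), the initiator caspase that the apoptosome activates, had counts of 1225, 1235, 1193, 1349 and 1179 in WT embryos. They were 1176, 1081, 1108, 1143 and 1198 in *Tbr1*+/K228E and 1283, 1270, 1089, 1229 and 1140 in *Tbr1*K228E/K228E embryos. Of the *Tbr1*+/K228E embryos, 4 were below every WT embryo, and the log2 fold change was -0.11 (95% interval -0.23 to 0.0005; limma unadjusted p = 0.0508, adjusted p = 0.999), with an exact permutation p of 0.0317 for *Casp9* alone. With the Hox, meningeal and cell cycle sums as covariates this value was -0.07. Between *Tbr1*K228E/K228E and WT embryos the log2 fold change of *Casp9* was -0.04 (95% interval -0.16 to 0.07).

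**Figure D2:**
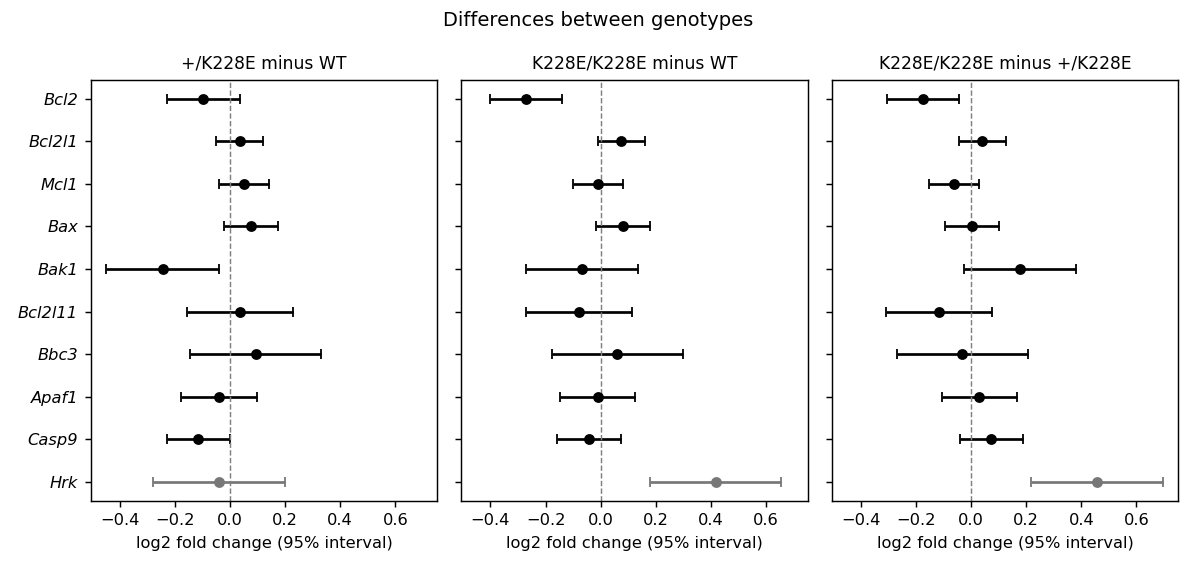
Log2 fold change (x axes) of the 9 genes and *Hrk* (y axis) in the 3 comparisons of genotypes; points are limma estimates and bars their 95% intervals, with *Hrk* in gray. For *Bcl2* the interval between *Tbr1*K228E/K228E and WT embryos runs from -0.40 to -0.14, for *Hrk* from 0.18 to 0.66, and the other members' intervals include 0 except that of *Bak1* between *Tbr1*+/K228E and WT and that of *Bcl2* between the mutant genotypes.

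In a wider set of 68 apoptosis genes in 9 lists, which includes the members, 64 were tested and 0 passed the adjusted threshold of limma in any of the 3 comparisons. At an unadjusted p under 0.05, limma gave 2, 3 and 5 of the 64 genes between *Tbr1*+/K228E and WT, *Tbr1*K228E/K228E and WT, and the mutant genotypes, respectively, against 1.79%, 3.23% and 3.3% of all tested genes. *Hrk* (ENSMUSG00000046607, plus strand, chr5:118164648-118189478), a BH3-only gene of neurons that is made when trophic support is lost, had counts of 802, 716, 955, 1053 and 1164 in WT embryos. The counts were 983, 858, 805, 1005 and 859 in *Tbr1*+/K228E and 1175, 1210, 1396, 1225 and 1176 in *Tbr1*K228E/K228E embryos. Every *Tbr1*K228E/K228E embryo exceeded every embryo of the other two genotypes. Its log2 fold change was 0.42 relative to WT (95% interval 0.18 to 0.66; limma adjusted p = 0.538) and 0.46 relative to *Tbr1*+/K228E embryos (95% interval 0.22 to 0.70; limma adjusted p = 0.388), with an exact permutation p of 0.00794 in both. Groups that did not overlap in the higher direction made up 0.321% and 0.491% of all tested genes in these comparisons. *Hrk* was named for its low p among the 64 genes, and groups of 5 that do not overlap always give this exact p. Under the alternative settings the log2 fold change of *Hrk* between *Tbr1*K228E/K228E and WT embryos was 0.33 to 0.50. It was 0.34 with the Hox, meningeal and cell cycle sums as covariates, and *Hrk* passed the threshold under none of the settings. Between *Tbr1*+/K228E and WT embryos the log2 fold change of *Hrk* was -0.04. Among females, the 3 WT embryos had *Hrk* counts of 716 to 955 and the 3 *Tbr1*K228E/K228E embryos 1175 to 1396, and among males the 2 WT embryos had 1053 and 1164 and the 2 *Tbr1*K228E/K228E embryos 1225 and 1176. The interaction of sex with this comparison, males minus females, was -0.50 on the log2 scale and did not pass correction (limma adjusted p = 0.801, unadjusted p = 0.0178).

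**Figure D3:**
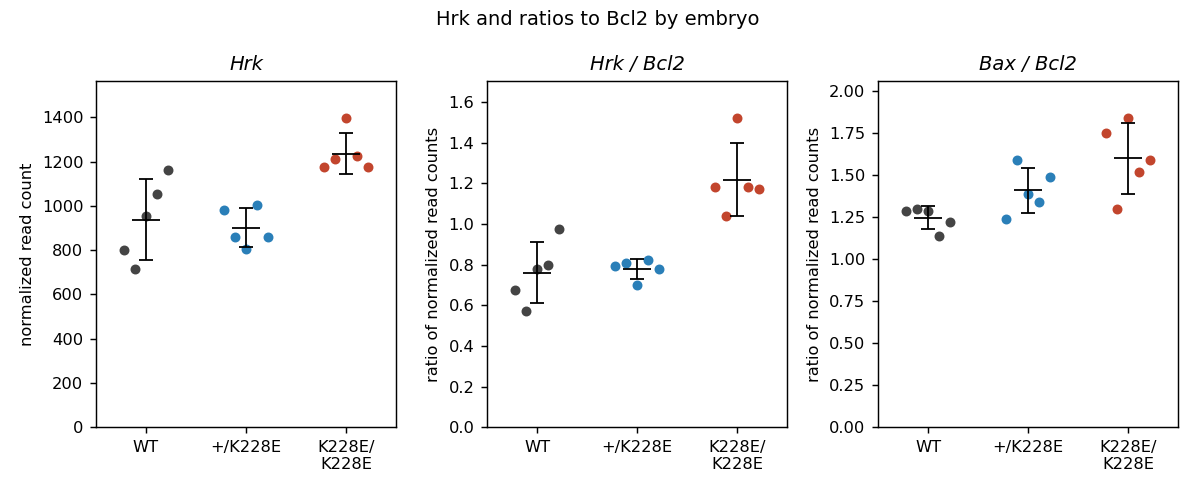
*Hrk* normalized read counts and the ratios of *Hrk* and *Bax* to *Bcl2* (y axes, each from 0) in 15 embryos by genotype (x axes); points are embryos, bars means with SD (n = 5). The ratio of *Hrk* to *Bcl2* was 1.04 to 1.52 in *Tbr1*K228E/K228E and 0.572 to 0.977 in WT embryos, and ratios are descriptions without a test. Neither *Hrk* nor *Bcl2* overlapped between these genotypes, in opposite directions, so their ratio could not overlap either.

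The ratio of *Hrk* to *Bcl2* counts had a median of 0.780 in WT, 0.794 in *Tbr1*+/K228E and 1.18 in *Tbr1*K228E/K228E embryos. This ratio too was chosen after the values had been seen. Between *Tbr1*K228E/K228E and WT embryos neither gene overlapped, in opposite directions, so the ratio could not overlap and adds no further result. Of the other genes at an unadjusted p under 0.05, *Endog*, a nuclease released from mitochondria, had a log2 fold change of -0.35 between *Tbr1*+/K228E and WT embryos (95% interval -0.64 to -0.05). *Ngfr*, the p75 neurotrophin receptor, had -0.80 between *Tbr1*K228E/K228E and WT embryos (95% interval -1.48 to -0.12), and -0.48 with the 3 marker sums as covariates. The highest *Ngfr* count of each genotype was in the embryo with its highest Hox sum (1067 in WT, 831 in *Tbr1*+/K228E and 681 in *Tbr1*K228E/K228E), and the part of this in the difference was not tested. Between the mutant genotypes *Bid*, which links death receptors to mitochondria, had 0.25 (95% interval 0.05 to 0.44), *Cflar*, an inhibitor of caspase-8, -0.17 (95% interval -0.34 to -0.004) and *Atf3*, a stress-induced transcription factor, -0.77 (95% interval -1.41 to -0.12). Each of these 5 values had a limma adjusted p of 0.996 or more. With the marker sums as covariates the value of *Cflar* was -0.07, without the third *Tbr1*K228E/K228E embryo that of *Atf3* was -0.47, and without the second *Tbr1*+/K228E embryo that of *Bid* was 0.16. The exons of *Endog* and *Bid* overlap with those of *Spout1* and *Bcl2l13* on the other strand, by 379 and 628 bases.

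No list held a gene that passed. The 7 genes of the apoptosome and caspase list had log2 fold changes between -0.04 and 0.06 in *Tbr1*K228E/K228E relative to WT embryos, with a median of 0.01, and 11 genes of p53 and its targets between -0.17 and 0.07, with a median of -0.05. For 9 death receptor genes the median was -0.18, and for 6 neurotrophin and receptor genes -0.22, beside -0.002 over all tested genes. Among the genes with the highest level per kilobase in their lists were *Jun* with 484, *Mdm2* with 454, *Ntrk2* with 400, *Birc2* with 363 and *Bad* with 291 over all embryos.

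No member passed the threshold between the sexes. Between 6 males and 9 females, with genotype as a covariate, the log2 difference ranged from -0.09 (*Bcl2l11*) to 0.14 (*Bbc3*), and the limma adjusted p of the 9 genes was at least 0.530, while 0.0788% of all tested genes passed. The difference between the sexes in the genotype effect passed for none of the members, whose smallest limma p was 0.0204 for *Bcl2l1* between *Tbr1*+/K228E and WT (adjusted p = 0.591).

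Few pairs of members passed correction for varying together across embryos. Of 36 pairs over 15 embryos, 1 passed Benjamini–Hochberg correction of the permutation p: *Bak1* and *Casp9*, with Pearson's r = 0.819 (permutation p = 0.00024, adjusted p = 0.00864) and Spearman's rho = 0.811 (permutation p = 0.0004, adjusted p = 0.0144). Without the WT and *Tbr1*+/K228E embryos farthest from the median of *Bak1*, r was 0.684 (permutation p = 0.00994, adjusted p = 0.156), so that the call rests on these embryos. With values centred by genotype r was 0.736 (permutation adjusted p = 0.0662). The next highest r were those of *Bcl2* with *Bax* (-0.627), *Mcl1* with *Casp9* (-0.607), *Bcl2l1* with *Bax* (0.592) and *Bcl2* with *Bcl2l11* (0.581). Each had a permutation adjusted p of 0.174, which does not show that these pairs vary apart.

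Both genes also moved with the Hox sum. On the log2 scale r was 0.729 for *Bak1* (rho 0.604) and 0.724 for *Casp9* (rho 0.693), each with a permutation adjusted p of 0.0401 for r over 36 relations of the 9 genes with 4 marker sums; for rho the adjusted p was 0.232 and 0.0945. Without the 2 embryos farthest from the median, r was 0.765 and 0.784. For *Bak1* the relation lay mainly between embryos on either side of the widest gap in the Hox sum. *Bak1* had a median of 528 in the 9 lower embryos and 620 in the 6 higher ones, and within these sets r was 0.229 and 0.141. For *Casp9* the medians were 1143 and 1252, with r of 0.573 and -0.08 within the sets, so that a relation was also seen within the lower set. For *Bcl2*, r with the Hox sum was 0.431 (rho 0.443, permutation adjusted p = 0.276), and none of its 4 relations passed correction. With values centred by genotype, r of *Bcl2* was 0.552 with the Hox sum (permutation adjusted p = 0.128). It was -0.646 with the cell cycle sum (permutation adjusted p = 0.0551), 0.0849 with the meningeal sum and -0.242 with the microglial sum.

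**Figure D4:**
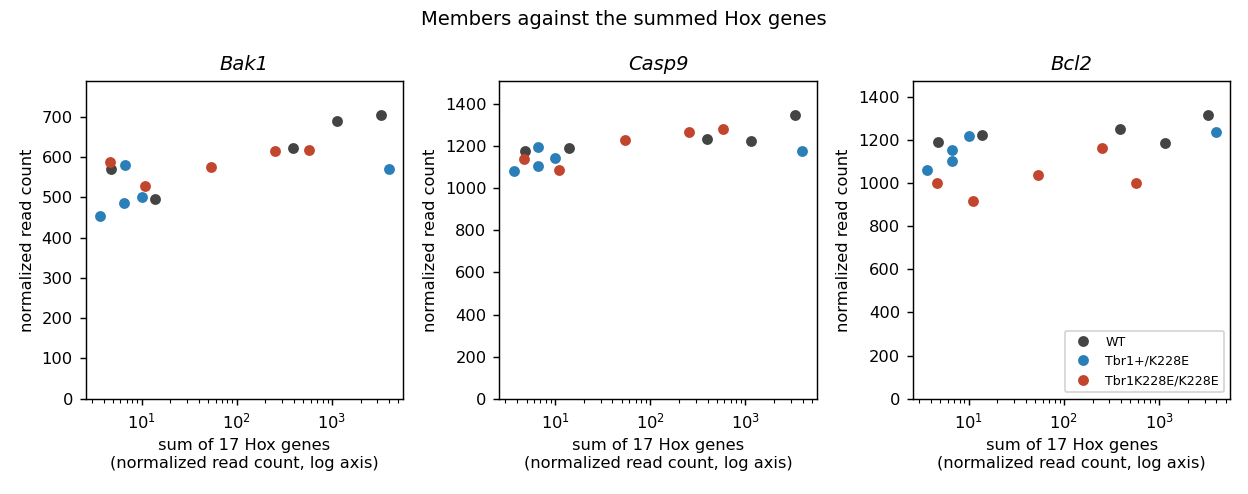
Normalized read counts of *Bak1*, *Casp9* and *Bcl2* (y axes, each from 0) against the sum of 17 Hox genes (x axes, log scale) in 15 embryos, colored by genotype. *Bak1* had a median of 620 in the 6 embryos with the highest Hox sums and 528 in the other 9. All *Bcl2* values of *Tbr1*K228E/K228E embryos lie below all those of WT embryos. The part of the Hox sum in the *Bcl2* difference was not tested.

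The genes most like each member over the 15 embryos, among 13533 other genes with a mean of at least 50, differed from member to member. *Bcl2* was most like *Lrpap1* (r = 0.906) and *Btbd11* (0.851), *Bcl2l1* like *Irf2bpl* (0.901) and *Pou3f1* (0.891), and *Mcl1* like *Mxi1* (0.921) and *Wdr5* (0.901). For the effectors, these genes were *Ubxn1* (0.885) and *Rpl15* (0.882) with *Bax*, and *Cntfr* (0.901) and *Sfmbt2* (0.899) with *Bak1*. *Bcl2l11* was most like *Man1c1* (0.854) and *Arpin* (0.844), *Bbc3* like *Slc41a2* (0.870) and *Stambpl1* (0.850), *Apaf1* like *D1Ertd622e* (0.844) and *Zfp948* (0.841), and *Casp9* like *Rfx4* (0.889) and *Aagab* (0.878). No gene recurred among these 18, and the correlations are descriptions of 15 shared libraries. The values were not centred by genotype, so a shared difference between genotypes can raise r. The paper lists *Lrpap1* among the genes lower in *Tbr1*K228E/K228E brains.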

How the data were processed

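Paired-end RNA-Seq libraries were made by the authors from 15 embryos with a kit that does not keep strand. Transcripts were quantified with Salmon 0.11.2 (quasi-mapping, GC bias correction) on GRCm38, imported to genes with tximport and divided by DESeq2 1.22.2 size factors in R 3.5.3, per the paper and the submitters' processing notes. The values that the authors deposited are thus a normalized signal per gene and embryo, not whole counts, so no count model was fitted.

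Genotype, sex and replicate number were taken from the labels. Genes were named by Ensembl identifier (19452 of 19475 matched), and GENCODE M21 gave coordinates and exon lengths. All 15 embryos entered one limma 3.58.1 fit with trend on log2(value + 1) in R 4.3.3, over genes with a mean of at least 5, with Benjamini–Hochberg adjustment and a threshold of 0.05. The fold changes are on this scale and understate those of low genes. Two-sided exact permutation tests also compared the members (27 tests), the other tested genes of the wider lists and the marker sums. Correlations were tested by 100000 permutations with scipy 1.17.1. The fit was first tested on simulated data with independent noise and known changes larger than those of the members. That test does not cover changes as small as theirs. Depth, estimated from the step of the lowest values, limits mainly genes with low values.

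The members, gene lists, marker lists and tests were chosen with earlier results of these data known. The genes named are the 9 members, *Tbr1*, the genes of the wider lists at an unadjusted p under 0.05 or with the highest level in their list, and the 2 genes most like each member. One gene that this rule names is not reported here. Promoter windows came from RefSeq. The alternatives tried were other pseudocounts (0.1 and 10), other filters (none, and a minimum mean of 50), quantile and upper quartile normalization, sex or marker sums as covariates, a replicate block, the compared genotypes alone, an empirical null fitted to the central 50% of test statistics, and leaving out each embryo. Leaving out 2 embryos together was added after the data had been seen.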

Additional observations from a re-analysis of the deposited data

Results flagged for a closer look

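In the second WT embryo *Apaf1* had a normalized read count of 1725, where the nearest of the other WT embryos had 2121, so that it stood apart from its group. In the third *Tbr1*K228E/K228E embryo *Hrk* had 1396, and the nearest of the other embryos of its genotype had 1225. These were the 2 that stood apart among 45 groups of 5 embryos examined, and chance marks about 1 group in 20.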

How the results depend on the processing

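Of 594 values of the members under alternative settings, 572 kept their direction and side of the threshold, 2 newly passed it, and 20 changed sign. The values that newly passed were those of *Bcl2* between *Tbr1*K228E/K228E and WT embryos, with marker sums as covariates and with the empirical null, so that the number of apoptosis genes past the threshold went from 0 to 1 under each. Leaving out each embryo gave -0.32 to -0.23 for this value. Over all genes, 21 passed between *Tbr1*K228E/K228E and WT, 12 in a fit of these genotypes alone, 54 with covariates, 42 with the empirical null, and 12 to 21 without each embryo. Between the mutant genotypes 13 passed, 30 with covariates, 8 without the *Tbr1*+/K228E embryo with the highest Hox sum and the WT embryo with the highest meningeal sum, and 6 to 8 without each embryo. Between the sexes 13 passed, 7 with the empirical null and 10 to 24 without each embryo. Pairs of members past correction went from 1 to 0 when values were centred or the 2 farthest embryos left out, and relations with marker sums from 2 to 5 when centred and 0 with Spearman's rho. Those that passed only when centred were *Bcl2l11* with the Hox sum (r = 0.692), and *Bax* (r = 0.769) and *Bbc3* (r = -0.666) with the cell cycle sum. The cause of these shifts was not tested.

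Signs changed for values whose intervals in the main fit included 0, and not only for the smallest of them. For *Bbc3*, signs changed although the main log2 fold change was 0.093 between *Tbr1*+/K228E and WT, the highest of the 9 members there. Between *Tbr1*K228E/K228E and WT it was 0.061. Without the 2 embryos named above, the log2 fold change was -0.011 for *Bbc3* between *Tbr1*+/K228E and WT, 0.0072 for *Apaf1* between *Tbr1*K228E/K228E and WT, and -0.016 for *Bax* and 0.044 for *Bbc3* between the mutant genotypes, and with covariates it was -0.017 for *Apaf1* between the mutant genotypes. Without each embryo, the ranges were -0.015 to 0.078 for *Bcl2l11* between *Tbr1*+/K228E and WT, -0.079 to 0.016 for *Apaf1*, -0.037 to 0.0088 for *Mcl1* and -0.0089 to 0.15 for *Bbc3* between *Tbr1*K228E/K228E and WT, and -0.024 to 0.028 for *Bax* and -0.080 to 0.044 for *Bbc3* between the mutant genotypes.

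A replicate number does not mark one animal across genotypes, and deviations of same-numbered embryos had a mean r of 0.0686, 0.243 and 0.0111 in the 3 comparisons, not above 0.1 in every pair, so that the numbers were not taken to pair them. With the replicate block, the genes past the threshold between the mutant genotypes were 2, and the limma adjusted p of *Bcl2* between *Tbr1*K228E/K228E and WT embryos was 0.371. The number of embryos, 5 a genotype, limits the precision, and the 95% intervals give it for each value.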
